A study of Mus musculus with 6 samples.

Results

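The 3 tumours described here grew from MTE-Ras cells and were injected with phosphate-buffered saline (PBS), the vehicle arm of the study. They are the samples whose titles read control tumors 1 to 3, 3 of the 6 samples in the series, and are called tumours 1, 2 and 3 below. The labels describe MTE-Ras as a mouse tracheal epithelial cancer line transformed by an oncogenic RAS mutation, and they name neither the RAS gene nor the mutation. The cells were placed under the skin of the right flank of C57BL/6 mice, and the PBS went into the lesion itself. The title of the series concerns head and neck squamous cell carcinoma and the dye-based agent PV-10. Tumours that received PV-10 were not analysed here. The host mice kept their immune system, so the RNA of each tumour comes from 1 transplanted line plus the stroma and leukocytes of 1 mouse. Sex and age of the mice and the time from injection to collection are not in the labels, and they do not say whether the line is a single clone.

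Oncogenic RAS proteins stay bound to GTP and drive the RAF, MEK and ERK kinases, whose output includes growth genes such as Ccnd1 and feedback inhibitors such as the Dusp phosphatases and Sprouty proteins. Epithelial cells are held together by E-cadherin and Epcam and filled with keratin filaments. Carcinoma cells that lose these and gain vimentin, fibronectin and the Zeb, Snail and Twist factors are said to be in a mesenchymal state. A tumour grown under the skin also contains fibroblasts that lay down collagen, vessels, and leukocytes, among which macrophages are often the most numerous.

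Total RNA was sequenced to 87386266, 92608727 and 98717951 gene counts in tumours 1, 2 and 3. A gene with no count could therefore have reached 3 counts, or 0.0304 to 0.0343 CPM (counts scaled to a common library size), a limit that covers counting error only because the reads carry no molecular identifiers. Levels are given as the deposited TPM values, transcript abundance corrected for length and scaled to 1 total in every tumour. In the 3 tumours 11429 genes, 10728 of them protein-coding, were at 1 TPM or more. Across 12759 genes with a mean of at least 1 TPM, the Pearson correlation of log2(TPM + 0.1) was 0.879 between tumours 1 and 2, 0.889 between 1 and 3, and 0.914 between 2 and 3. These are correlations across genes, which are not independent replicates. The biological coefficient of variation between the tumours was 0.327.

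The TPM scale itself shifted between tumours. The median gene lay 0.43 higher on the log2 scale in tumour 2 than in tumour 1, and 0.30 higher in tumour 3 than in tumour 1. On CPM scaled by the trimmed mean of M-values (TMM) these shifts were -0.01 and 0.01. The Y RNAs Rny1 and Rny3 alone took 31.0%, 16.4% and 25.1% of TPM but at most 0.137% of counts. Levels below are therefore in TPM, and differences between tumours are on TMM-scaled CPM, as ratios of value + 0.1. By TPM 24.9% of the 12759 genes differed by at least 2-fold between the highest and the lowest tumour, and by TMM-scaled CPM 15.6% did. As a base for the tallies below, by CPM tumours 1, 2 and 3 were the highest in 38.1%, 30.9% and 31.0% of the 12759 genes and the lowest in 38.4%, 33.5% and 28.1%. Each tumour is 1 sample, so these folds describe single animals and carry no test.

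Outside ribosomal protein, mitochondrial and structural RNA, the most abundant transcripts encoded cytoskeleton, calcium-binding and iron storage proteins. Actb, cytoplasmic beta-actin, stood at 16376 ± 1885 TPM (SD, n = 3). S100a11, a calcium-binding protein of epithelia, followed at 6340 ± 1981 TPM, with 8628 TPM in tumour 1 against 5196 and 5197 in tumours 2 and 3. The intermediate filament gene Vim (vimentin) had 2313, 2584 and 2533 TPM, and its order depended on the scale, since by CPM tumour 1 was the highest. Ecm1, a secreted matrix protein, reached 1511 ± 351 TPM, the ferritin heavy chain Fth1 2860 ± 816 TPM, and galectin-1 (Lgals1) 1140 ± 63.1 TPM. Hmga1, a chromatin protein of embryonic and cancer cells, was among the 20 most abundant genes at 1355 ± 61.9 TPM, and its relative Hmga2 reached 323, 405 and 490 TPM.

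Simple-epithelial keratins were well expressed, but most other markers of airway or squamous epithelium were near 0. Krt18 had 210, 181 and 219 TPM and its filament partner Krt8 had 155, 129 and 164 TPM, with no 2-fold difference between tumours. Krt7 stood at 46.4 ± 6.28 TPM and Krt19 at 42.0 ± 11.8 TPM. The E-cadherin gene Cdh1 was low, at 2.43, 1.99 and 2.53 TPM. Epcam had 0, 32 and 38 counts, or at most 0.2 TPM. Esrp1, a splicing factor of epithelial cells, and Scgb1a1 and Nkx2-1, the secretoglobin of airway club cells and a lung lineage factor, had no count in any tumour. Foxj1, the ciliated cell factor, had at most 0.250 TPM. Of 32 airway and simple-epithelial genes, 26 stayed under 1 TPM in all 3 tumours. For a line labelled as tracheal epithelium, simple keratins were thus present and the defining airway markers were absent or near 0.

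Genes of basal and squamous epithelium split into a silent and an abundant set. The basal keratins Krt5 and Krt14 had at most 0.190 and 1.24 TPM, and Trp63, the basal lineage factor, 0.260, 0.210 and 0.18 TPM. Integrin alpha-6 (Itga6) and integrin beta-4 (Itgb4), which together anchor basal cells to laminin, stood at 212 ± 31.8 and 43.2 ± 11.9 TPM. Plec, the plakin that ties that integrin pair to keratin, had 142, 203 and 177 TPM and was even by CPM, with a 1.03-fold range. The stem cell factors Sox9 and Sox2 reached 129 ± 15 and 12.2 ± 4.03 TPM. Dsp (desmoplakin), the desmosome's link to keratin, varied, from 5.95 TPM in tumour 1 to 1.6 and 0.690 in tumours 2 and 3, 4.49-fold above the next tumour by CPM. Tumour 1 also held 2.20-fold more Krt19 by CPM than the next tumour.

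Mesenchymal genes were high in all 3 tumours. Of 28 such genes, 27 had a mean of at least 1 TPM, and the list summed to 7454, 10210 and 8991 TPM. Beside Vim, the hyaluronan receptor Cd44 was steady at 390 ± 10.1 TPM. Fibronectin (Fn1) was not: it had 455, 1827 and 899 TPM, and by CPM tumour 2 was 2.88-fold above tumour 1. The factors that repress epithelial genes were all present, with Zeb2 at 62.5 ± 11.1, Twist1 at 50.4 ± 14.6, Zeb1 at 36.7 ± 12.0, Snai1 at 33.2 ± 13.6 and Snai2 at 14.8 ± 1.75 TPM. N-cadherin (Cdh2) had 39.5, 24.7 and 23.3 TPM, above E-cadherin in each tumour. Ncam1, a neural adhesion molecule, reached 145 ± 35.9 TPM although the Schwann cell factor Sox10 had 0, 0 and 3 counts. Fibroblasts share many of these genes, and bulk RNA cannot say which cells carry them.

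**Figure D1:**
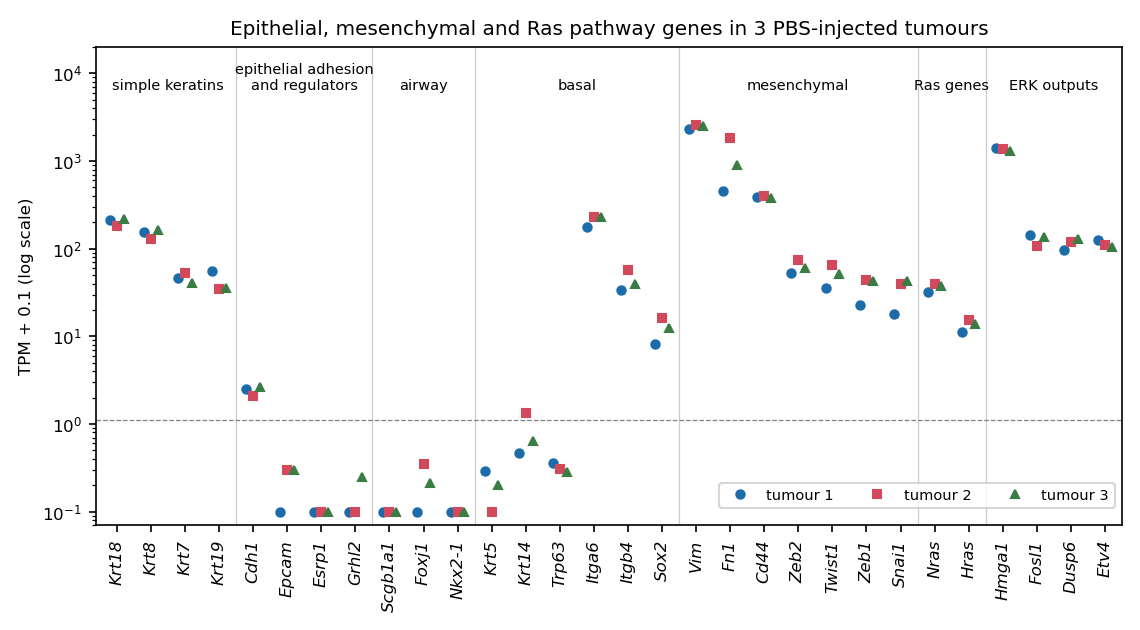
TPM + 0.1 on a log scale for epithelial, basal, mesenchymal, Ras and ERK output genes, with 1 point per tumour and a dashed line at 1 TPM. Krt18 and Krt8 lie between 129 and 219 TPM, Vim at 2313 to 2584 TPM, and Epcam, Scgb1a1, Krt5 and Trp63 lie below the line in all 3 tumours.

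The Ras genes and their pathway were even between tumours. Nras had 32.1, 39.9 and 37.6 TPM and Hras 11.1, 15.2 and 13.9 TPM. By CPM their ranges were 1.18-fold and 1.13-fold, so no tumour stood apart in either. None of 12 Ras family genes and none of 27 effectors and regulators differed by 2-fold on CPM, where 15.6% of all genes did. The effector with the highest mean level was the ERK kinase gene Mapk3, at 65.7, 87.3 and 68.2 TPM. The counts do not distinguish the mutant allele.

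Genes known as ERK outputs were expressed in full: all 28 had a mean of at least 1 TPM, and 4 differed by 2-fold on CPM, or 14.3%, near the 15.6% of all genes. The Fos-family factor Fosl1 had 143, 107 and 135 TPM, the ETS factor Etv4 125, 109 and 105 TPM, and the ERK phosphatase Dusp6 95.8, 118 and 130 TPM. Cyclin D1 (Ccnd1) stood at 271 ± 37.9 TPM and Myc at 157 ± 22.0 TPM. Dusp4, a nuclear ERK phosphatase, was lower in tumour 1, with 55.5 CPM against 133 and 114 CPM in tumours 2 and 3. The EGF receptor ligands Areg and Ereg reached 40.1 ± 8.73 and 21.1 ± 1.6 TPM, while Egfr itself stood at 9.64 ± 2.10 TPM and Erbb3 at 0.270 ± 0.0755 TPM. The highest receptor tyrosine kinase of its list was Fgfr1, with 72.1, 186 and 132 TPM, and next came Igf1r at 46.7 ± 6.33 TPM.

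Cell cycle brakes were expressed beside these drivers. Mdm2, not itself a brake but the ubiquitin ligase that removes p53, was high at 544, 674 and 487 TPM. Trp53, which encodes p53, had 168, 151 and 145 TPM, and its target Cdkn1a (p21) had 94.3, 117 and 108 TPM. Cdkn2a, which encodes the p16 and ARF inhibitors, stood at 78.5 ± 19.97 TPM, and the retinoblastoma gene Rb1 at 7.76 ± 2.36 TPM. Of 25 genes listed as tumour suppressors and cell cycle brakes, 1 differed by 2-fold on CPM, or 4%, against 15.6% of all genes.

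Host cell content was read from defining markers, 3 or 4 for each cell type. Their median stood at 158 ± 24.7 TPM for contractile fibroblasts, 83.1 ± 25.5 TPM for fibroblasts in general and 30.7 ± 4.77 TPM for macrophages, and the values of the 3 tumours did not overlap between these. The contractile median rests on Acta2, Tagln and Tgfb1, which stood far apart. Acta2 had 300, 208 and 133 TPM, while Tagln was far lower by CPM, as given below. That median therefore does not rank contractile fibroblasts as cells. From macrophages down to T cells, neighbours in the order overlapped. Blood endothelium stood at 12.9 ± 5.51 TPM, mast cells, basophils and eosinophils at 12.1 ± 12.7 TPM, and inflammatory fibroblasts at 5.43 ± 1.79 TPM. T cells stood at 1.52 ± 0.474 TPM and neutrophils at 1.17 ± 0.775 TPM. Medians were 0.0983 ± 0.0153 TPM for B and plasma cells and 0 for hepatocytes. Fewer cells of a type and less RNA per cell cannot be told apart in bulk tumours. Mesenchymal tumour cells can also express Acta2, Col1a1 and Tgfb1, and which cells did so here was not tested.

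**Figure D2:**
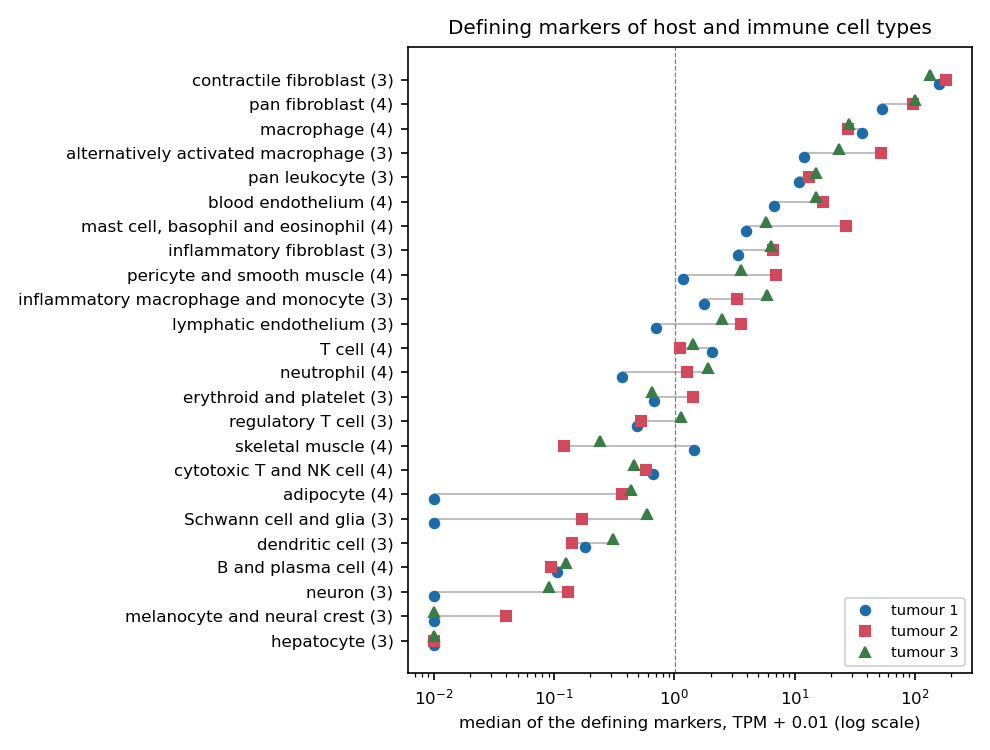
Median TPM + 0.01 of the defining markers of each host cell type on a log scale, with the number of markers in brackets, 1 point per tumour and a dashed line at 1 TPM. The medians for contractile fibroblasts, fibroblasts in general and macrophages lie highest, while that for inflammatory fibroblasts lies at 3.37, 6.56 and 6.37 TPM. The mast cell median is 26.7 TPM in tumour 2 against 3.92 and 5.80 in tumours 1 and 3, and B cell, neuron, melanocyte and hepatocyte markers lie below the line.

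Pan-leukocyte genes stayed within 2-fold between the 3 tumours by CPM, and macrophage markers led the leukocyte genes. The 20 pan-leukocyte genes summed to 586, 618 and 588 TPM, and none of them differed by 2-fold on CPM, where 15.6% of all genes did. By CPM they summed to 1414, 1173 and 1245, and tumour 1 was the highest in 13 of the 20, with a median of 0.29 on the log2 scale above the others. Ptprc, the CD45 phosphatase of all leukocytes, had 11.0, 16.0 and 16.9 TPM. All 28 macrophage genes had a mean of at least 1 TPM. Among them the complement chain C1qb had 296, 258 and 262 TPM, the lysozyme Lyz2 337, 353 and 254 TPM, the scavenger receptor Cd68 188, 125 and 104 TPM, and the growth factor receptor Csf1r 50.1, 38.0 and 34.5 TPM. By CPM tumour 1 was the highest in 25 of the 28, against 38.1% of all genes, with a median of 0.61 on the log2 scale above the other 2. By summed TPM, however, tumour 2 was the highest (4250, 4719 and 3869). Apoe, a lipid carrier of macrophages, had 1327, 765 and 611 CPM, highest in tumour 1.

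Markers of macrophage states differed between tumours in opposite directions. Mrc1, the mannose receptor, was even at 53.6, 52.3 and 51.6 TPM. Arginase (Arg1), a marker of alternatively activated macrophages, had 12.0, 51.7 and 23.1 TPM, highest in tumour 2. The haemoglobin scavenger receptor Cd163 went the other way, with 31.8 CPM in tumour 1 against 8.30 and 9.94 CPM in tumours 2 and 3. Nos2, the nitric oxide synthase of inflammatory macrophages, stayed at 0.620, 2.78 and 0.940 TPM. The macrophage growth factor Csf1 stood at 107 ± 17.6 TPM.

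Defining markers of lymphocytes, neutrophils and dendritic cells were scarce. The T cell list summed to 109, 149 and 160 CPM, lowest in tumour 1, but its leading gene was Thy1, which fibroblasts also express, with 41.1, 90.1 and 109 CPM. The list of cytotoxic T and NK cells summed to 49.3, 75.3 and 53.5 CPM. Single T cell genes had another order. The T cell receptor chain Cd3e had 4.80, 1.57 and 2.20 TPM, and tumour 1 was 2.77-fold above the next by CPM. Cd8a, the coreceptor of cytotoxic T cells, had 302, 38 and 22 counts, again highest in tumour 1, at 0.840 TPM. Foxp3, the factor of regulatory T cells, had 0.480, 0.520 and 1.12 TPM. The B cell surface gene Ms4a1 had at most 39 counts in a tumour. Ly6g, which marks mouse neutrophils, had no count, and the neutrophil protein S100a8 had 0, 75 and 86 counts. Flt3 and Xcr1, of dendritic cells, had at most 0.3 TPM. The whole dendritic list summed to 287, 429 and 401 TPM, with 11 of 22 genes at a mean of at least 1 TPM, and was led by Tcf4 and Fscn1, which other cells also express. The chemokine Cxcl9, which attracts T cells, had 149, 35.7 and 65.3 CPM, and the monocyte chemokine Ccl8 had 44.1, 22.1 and 9.79 CPM.

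Antigen presentation genes were expressed throughout. Beta-2 microglobulin (B2m), the light chain of MHC class I, had 2780, 2281 and 2082 TPM, and the heavy chain H2-K1 had 155, 112 and 123 TPM. Tumour 2 was the lowest in 18 of 21 class I and peptide loading genes by CPM, with a median of -0.38 against the other tumours, while by summed TPM tumour 3 was the lowest (3887, 3418 and 3255). None of the 21 was 2-fold below both others in tumour 2, where 1.05% of all genes were. The class II chaperone Cd74 had 1209, 551 and 737 CPM, and tumour 2 was the lowest in 8 of 10 class II genes, as in 33.5% of all genes. Interferon-stimulated genes were lowest in tumour 2 in 18 of 29 by CPM, where 33.5% of all genes were. Among checkpoints, Vsir (VISTA) stood at 68.0 ± 16.4 TPM, Cd276 (B7-H3) at 27.2 ± 2.19 TPM, Cd274 (PD-L1) at 4.94 ± 1.32 TPM and Pdcd1 (PD-1) at 0.290 ± 0.229 TPM.

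Other flank tissues contributed little. Adipoq, the adipocyte hormone, had no count, and the liver protein Alb had at most 34 counts. Skeletal muscle genes summed to 27.5, 8.96 and 6.32 TPM. The troponin T gene Tnnt3 had 311 counts in tumour 1, against 12 and 31. Genes of differentiated skin summed to 9.48, 6.12 and 4.81 TPM.

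Collagen, matrix and vessel genes were lower in tumour 1 than in tumours 2 and 3. Of 19 collagen genes, 17 were lowest in tumour 1, against 38.4% of all genes. In 8 of the 19 tumour 1 was at least 2-fold below both other tumours, against 3.84% of all genes. Type I collagen chain Col1a1 had 1555, 2433 and 3133 CPM, and Col3a1, its partner in soft connective tissue, had 532, 903 and 1315 CPM. Tumour 1 lay apart most in the type V chain Col5a2, with 53.4 CPM against 173 and 171, and in the anchoring fibril gene Col7a1, with 64.3 against 257 and 206 CPM. The collagens summed to 819, 2045 and 1995 TPM, and their median was 1.03 lower on the log2 CPM scale in tumour 1 than in the others.

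Matrix proteins and endothelium were also lowest in tumour 1. Of 26 matrix glycoproteins and proteoglycans, 23 were lowest in tumour 1, as were 38.4% of all genes, with a median of -0.83. Tenascin C (Tnc), a matrix protein of wounds and tumours, had 795, 1191 and 1942 CPM, and Sfrp2, a secreted Wnt modulator of fibroblasts, had 11.2, 59.9 and 34.8 CPM. The fibroblast receptor Pdgfra had 19.2, 54.4 and 57.0 CPM. In blood endothelium 23 of 26 genes were lowest in tumour 1, with a median of -0.95. There 10 were at least 2-fold below both others, against 3.84% of all genes. VE-cadherin (Cdh5), the junction protein of endothelial cells, had 109, 231 and 196 CPM, and von Willebrand factor (Vwf) had 11.2, 69.4 and 31.8 CPM.

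Other measures moved with this difference. Longer transcripts were lower in tumour 1: relative to the mean of the 3, its log2 CPM changed by -0.07 per doubling of effective length, against 0.05 and 0.02 in tumours 2 and 3. With each tumour's length trend removed, the tumour 1 medians were -0.96 for collagens, -0.74 for matrix genes and -0.90 for endothelium. Y-linked genes, which here can come from male host cells or from the line, were also lowest in tumour 1: Ddx3y had 4.43, 14.2 and 12.5 CPM, Eif2s3y 2.7, 6.32 and 6.6 CPM, and Uty 1.19, 3.58 and 6.49 CPM. Xist, the RNA of the inactive X chromosome, had 0, 14 and 0 counts. Tumour 1 had a count in 19163 genes, against 22895 and 23068 in tumours 2 and 3. Mitochondrially encoded RNA took 7.99%, 6.82% and 5.87% of counts. The part of host cells, and of these measures, in the lower stroma genes was not tested.

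Some contractile genes were highest in tumour 1. Acta2, the smooth muscle actin that marks contractile fibroblasts, had 829, 412 and 294 CPM, highest in tumour 1 and lowest in tumour 3. Gamma smooth muscle actin (Actg2) had 136, 46.7 and 16.3 CPM, the myosin light chain Myl9 121, 44.8 and 18.9 CPM, and calponin (Cnn1) 9.68, 3.13 and 1.24 CPM. The order was the same by TPM. In a list of smooth muscle contractile genes drawn up after these values were seen, tumour 1 was at least 2-fold above both others in 5 of 13 (2.05% of all genes), and tumour 3 was at least 2-fold below both in 4 of 13 (1.04% of all genes). The values chose that list, so nothing is read from these counts. The broader contractile fibroblast list had no such order: it summed to 4687, 5870 and 5894 CPM, and tumour 1 was the highest in 6 and the lowest in 7 of 17 genes, with a median of -0.04. The pericyte and smooth muscle list summed to 1219, 1045 and 756 CPM, but tumour 1 was the lowest in 7 of 12 genes, with a median of -0.48. Among the genes that were not highest in tumour 1, the actin-binding protein Tagln had 10.2, 16.9 and 13.2 CPM, and the heavy chain Myh11 of mature smooth muscle had 0.915, 3.19 and 5.48 CPM. Rgs5, a pericyte marker, had 9.69, 46.4 and 25.5 CPM, the order seen for endothelium.

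Proliferation genes were highest in tumour 3 and, by CPM, lowest in tumour 2. All 41 genes of the list had a mean of at least 1 TPM. Tumour 3 was the highest in 35 and tumour 2 the lowest in 36, against 31.0% and 33.5% of all genes. Their medians were 0.57 and -0.76 against the other tumours, although by summed TPM tumour 1 was the lowest (1130, 1173 and 1633). Mki67, the Ki-67 antigen of dividing cells, had 684, 388 and 759 CPM. Topoisomerase Top2a had 253, 151 and 312 CPM, the mitotic activator Cdc20 36.3, 14.1 and 36.5 CPM, and survivin (Birc5), of the mitotic spindle, 12.7, 7.78 and 19.3 CPM. In 5 of the 41, tumour 2 was at least 2-fold below both others, against 1.05% of all genes. Cdk4, the cyclin D kinase, changed less, with 169, 170 and 201 CPM.

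Replication-dependent histones, which are made in S phase, were also lowest in tumour 2. This list was added after the values were seen, so nothing is read from its counts. They took 0.420%, 0.226% and 0.473% of counts. Of 61 histone genes with a mean of at least 1 TPM, tumour 2 was the lowest in 59, as in 33.5% of all genes. It was at least 2-fold below both others in 20, as in 1.05% of all genes. Tumour 3 was the highest in 38 and tumour 1 in 22, against 31.0% and 38.1% of all genes. Tumour 3 was at least 2-fold above both others in 1, where 0.666% of all genes were. The H3 gene Hist2h3b had 498, 219 and 480 CPM and the H2A gene Hist1h2ap 412, 179 and 431 CPM. Near-identical histone copies share reads, so single members are uncertain.

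Hypoxia and glycolysis genes were lowest in tumour 3 in 23 of 28, with a median of -0.39, where 28.1% of all genes were lowest. Bnip3, a mitophagy receptor induced by low oxygen, had 59.2, 80.3 and 29.5 CPM, and 16 of the 28 were highest in tumour 2 by CPM, as were 30.9% of all genes. Vegfa, the vessel growth factor, had 150, 217 and 152 CPM.

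**Figure D3:**
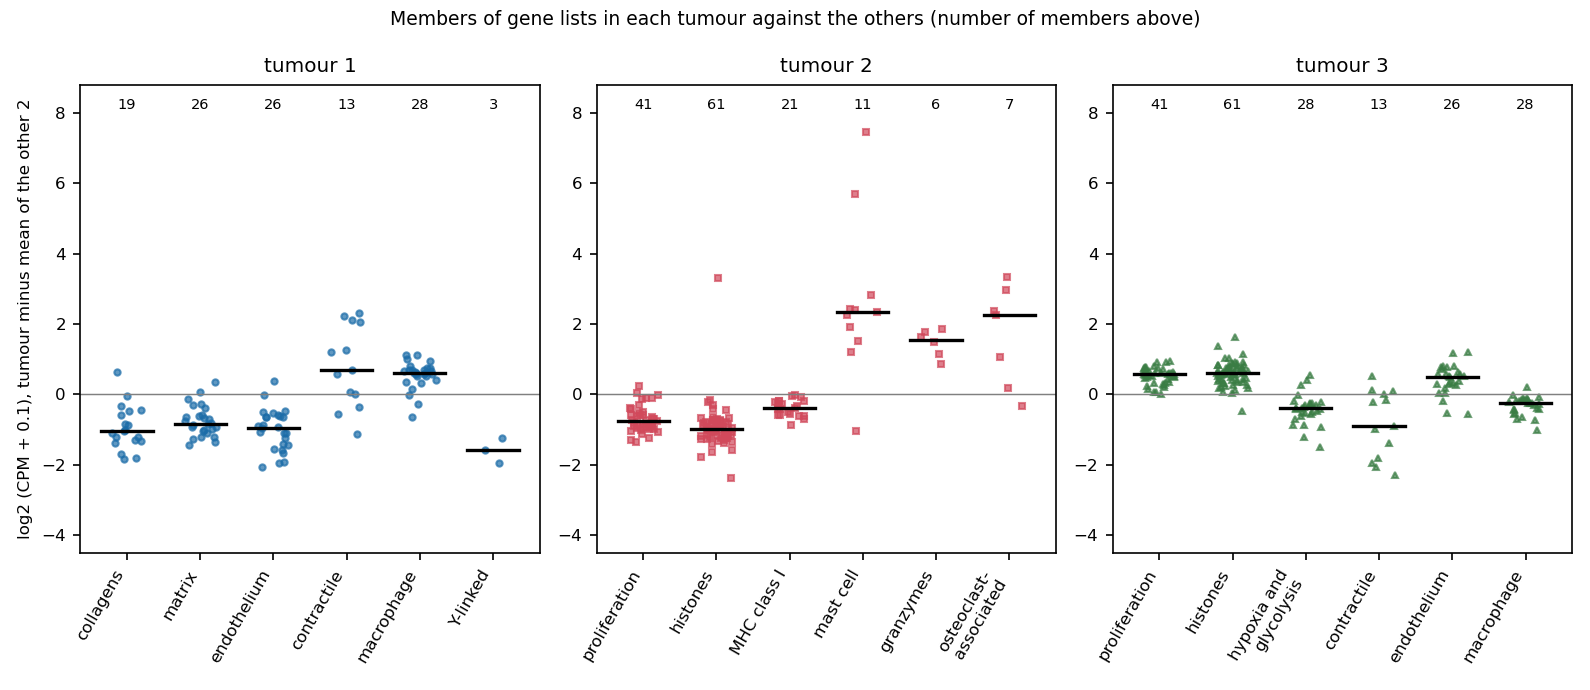
Each point is 1 gene with a mean of at least 1 TPM, and shows log2(CPM + 0.1) in 1 tumour minus the mean of the other tumours; black bars are medians and the number of genes stands above. Collagen, matrix and endothelium genes lie mostly below 0 in tumour 1 (medians -1.03, -0.83 and -0.95), proliferation and histone genes lie mostly below 0 in tumour 2 and above 0 in tumour 3, and the mast cell genes shown, some of which reached a mean of 1 TPM only through tumour 2, lie mostly above 0 there.

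Mast cell proteases set tumour 2 apart, and among genes with a mean of at least 10 TPM its largest fold above both other tumours was that of Mcpt1. With 0.47, 142 and 0.67 TPM, Mcpt1 passed that filter only through tumour 2, so its rank is a description. Mast cells store chymases, tryptases and carboxypeptidase A in their granules, and depend on the receptor Kit. The sequences below are shown because these members were high together in tumour 2 and because Mcpt1 and Mcpt4 are close copies. They are the 250 bases before the start of each gene, from RefSeq on GRCm38.p6, with capitals for a GATA motif, since GATA factors are known regulators of mast cell genes. The motif was searched as AGATAA and TGATAA on both strands (reverse complements TTATCT and TTATCA), and the TGATAA form was added after the sequences were read.
Mcpt1, chr14:56017714-56017963, plus strand: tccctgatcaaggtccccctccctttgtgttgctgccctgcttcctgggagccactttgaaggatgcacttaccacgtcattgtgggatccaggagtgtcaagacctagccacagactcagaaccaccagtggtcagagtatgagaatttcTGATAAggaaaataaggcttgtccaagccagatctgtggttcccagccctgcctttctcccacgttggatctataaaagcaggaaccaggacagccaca
Mcpt4, chr14:56062311-56062560, minus strand: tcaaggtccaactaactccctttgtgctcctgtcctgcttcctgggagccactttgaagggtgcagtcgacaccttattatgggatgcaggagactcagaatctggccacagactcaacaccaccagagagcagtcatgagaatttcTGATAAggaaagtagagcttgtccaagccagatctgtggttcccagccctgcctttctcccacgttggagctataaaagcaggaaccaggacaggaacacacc
Cpa3, chr3:20242182-20242431, minus strand: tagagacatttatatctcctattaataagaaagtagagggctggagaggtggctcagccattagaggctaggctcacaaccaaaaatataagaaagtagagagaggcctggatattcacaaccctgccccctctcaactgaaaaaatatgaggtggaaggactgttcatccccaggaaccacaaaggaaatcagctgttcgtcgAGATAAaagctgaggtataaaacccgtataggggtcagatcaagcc
Cma1, chr14:55944676-55944925, minus strand: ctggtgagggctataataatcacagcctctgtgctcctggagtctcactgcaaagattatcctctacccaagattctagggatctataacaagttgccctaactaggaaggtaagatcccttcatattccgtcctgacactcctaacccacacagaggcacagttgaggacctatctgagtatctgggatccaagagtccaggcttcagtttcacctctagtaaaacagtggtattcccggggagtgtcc
The Mcpt1 and Mcpt4 windows were 81.5% identical over their alignment, with a shared run of 53 bases. Each of Mcpt1, Mcpt4 and Cpa3 held 1 GATA motif of the searched forms and Cma1 held none of these. Forms that end in G were not searched, and the Cma1 window holds ctatct, the reverse complement of AGATAG. Of the 22 listed genes 18 had a window in the RefSeq table, and 8 of the 18 held the motif, as did 16.6% of all 32851 windows. The form that matches in Mcpt1 and Mcpt4 was added after their windows were read, and these are close copies. Nothing is therefore read from that share. A match is a description of these letters, not of binding.

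Mcpt1, a chymase of mucosal mast cells (chromosome 14, 56017971 to 56020384 on mm10, plus strand), had 49, 11792 and 68 counts, or 0.582, 126 and 0.670 CPM. Tumour 2 stood 164-fold above the next tumour. The 95% Poisson intervals were 36.3 to 64.8 counts in tumour 1 and 52.8 to 86.2 in tumour 3, so counting error is small beside the gap. Mcpt2, a second mucosal chymase, had 0.499, 74.3 and 3.30 CPM, 21.9-fold above the next tumour. RSEM divides reads among similar copies, so the split between Mcpt1, Mcpt2 and Mcpt4 is uncertain, but their sum was low in tumours 1 and 3.

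Proteases of connective tissue mast cells were present in all 3 tumours and also highest in tumour 2. The tryptase Tpsb2 had 16.5, 108 and 13.8 CPM, carboxypeptidase Cpa3 12.1, 60.2 and 12.8 CPM, Mcpt4 8.94, 49.1 and 9.64 CPM, and the chymase Cma1 5.37, 33.1 and 7.80 CPM. In each of these tumour 2 was 4.2- to 6.53-fold above the next, and tumours 1 and 3 were close. Kit had 8.56, 38.1 and 12.0 CPM and the factor Gata2 2.52, 8.14 and 4.70 CPM. Ms4a2, the beta chain of the IgE receptor, had 15, 139 and 15 counts. The basophil protease Mcpt8 did not follow, with 1.55, 0.844 and 2.21 CPM. The eosinophil receptor Siglecf had 0, 0 and 6 counts, too few to show an order. These are single genes, and whether basophils or eosinophils followed was not tested. Of the 22 listed genes 11 had a mean of at least 1 TPM, 7 of them at 1 TPM or more in every tumour, and the other 11 were under 1 TPM in all 3. Members such as Mcpt1 reached that mean only through tumour 2. The list summed to 35.1, 479 and 50.1 TPM. Kitl, the ligand of Kit, was not highest there, at 398, 245 and 254 CPM, and Il3 and Il9, cytokines that support mast cells, had no count.

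A further set of proteases and granule genes was higher in tumour 2; the lists were drawn up after their values were seen. Mmp9, a gelatinase of osteoclasts and neutrophils, had 35.7, 239 and 16.0 CPM, and the collagenase Mmp13 had 12.0, 136 and 9 CPM. Acid phosphatase Acp5 had 20.8, 96.6 and 7.21 CPM, cathepsin K (Ctsk) 15.6, 61.7 and 10.8 CPM, and the proton pump subunit Atp6v0d2 7.69, 21.1 and 2.06 CPM. These belong to the bone-resorbing programme of osteoclasts. Its receptor Tnfrsf11a (RANK) had 30.1, 20.5 and 22.3 CPM and its factor Nfatc1 had 127, 119 and 88.0 CPM, both highest in tumour 1. Dcstamp, also in the osteoclast-associated list, had 9, 138 and 50 counts, highest in tumour 2. In the osteoclast-associated list 4 of 7 genes were at least 2-fold above both others in tumour 2, where 0.87% of all genes were. The list was chosen from these values, so nothing is read from the count. Of the defining neutrophil markers, Ly6g had no count and S100a8 had few, as given above. The median of all 4 was 0.355, 1.27 and 1.895 TPM, highest in tumour 3. Only 1 of the 4 stayed under 1 TPM in every tumour. The whole neutrophil list, however, summed to 104, 344 and 88.5 CPM, and its median in tumour 2 was 0.69 on the log2 scale above the others. Which cells carried these proteases was not tested.

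Granzymes are stored in cytotoxic granules, and the 6 with a mean of at least 1 TPM were also highest in tumour 2, as were 30.9% of all genes. The granzyme list too was drawn up after its values were seen, so nothing is read from that count. Gzmd had 32.0, 78.7 and 20.5 CPM, Gzmf 24.9, 58.1 and 10.01 CPM, Gzmg 23.8, 58.4 and 12.2 CPM, and Gzme 10.01, 23.9 and 7.11 CPM. Gzmc and Gzmb had 39.8 and 10.8 CPM in tumour 2. Perforin (Prf1), which opens target cells to granzymes, had 8.07, 17.9 and 6.35 CPM. Gzmk had no count, and Gzma had 4, 0 and 82 counts, highest in tumour 3. The NK cell receptor Ncr1 had 35, 100 and 85 counts. These neighbouring granzymes are close copies, and RSEM's split between them is uncertain.

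**Figure D4:**
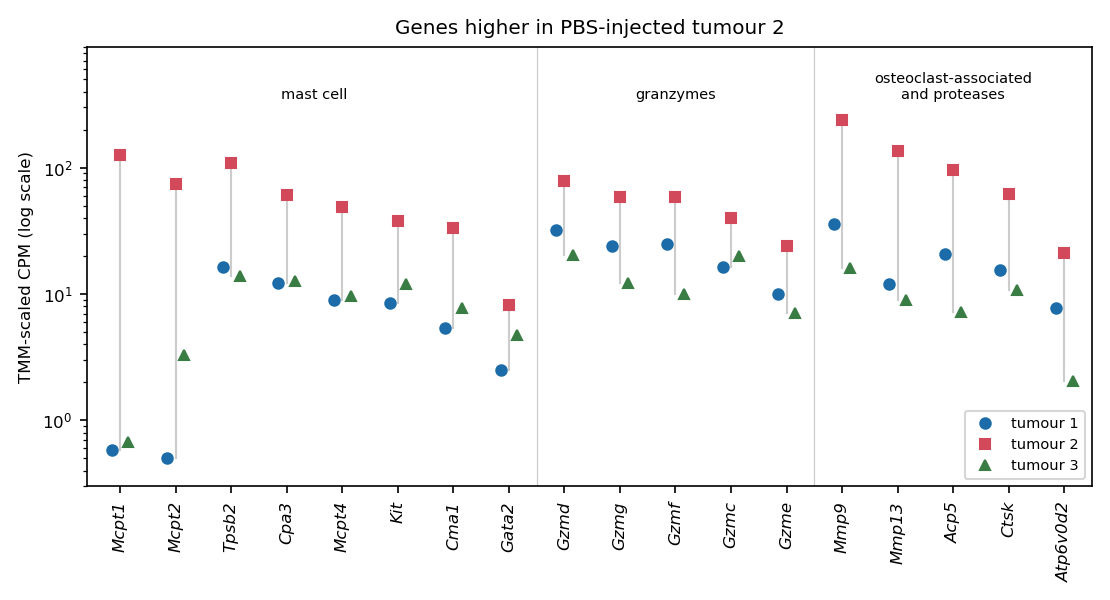
TMM-scaled CPM on a log scale for mast cell genes, granzymes, and osteoclast-associated genes with Mmp13, with 1 point per tumour. The genes were picked for being higher in tumour 2, so it is the highest for each, from 8.14 CPM for Gata2 to 239 CPM for Mmp9. Members of these lists that were not highest there, such as Mcpt8, Gzma and Nfatc1, are not shown. Tumours 1 and 3 lie close together for most mast cell proteases.

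Single genes also set a tumour apart. Cym, the gene of the milk-clotting protease chymosin, had 10388, 9570 and 131 counts, so tumour 3 was 73.6-fold below the lower of the others by CPM. Clusterin (Clu), a secreted chaperone, had 25.1, 52.5 and 174 CPM, highest in tumour 3. The retinoic acid-binding proteins exchanged places: Crabp2 had 32.9, 5.10 and 4.81 CPM, whereas Crabp1 had 6.22, 37.8 and 60.6 CPM. Ptpn22, a phosphatase of lymphocytes, was highest in tumour 1 at 122, 40.6 and 30.2 CPM, and so was the fatty acid desaturase Scd1 at 210, 99.4 and 92.1 CPM. Prl2c2, a proliferin of placenta and growing cells, had 19, 26.2 and 45.2 CPM.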

How the data were processed

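Total RNA (100 ng) of each tumour went into strand-specific NuGEN libraries, read as 100-base pairs on a NovaSeq 6000, per the labels' protocols. Per the labels' protocols adapters were trimmed by the authors (BBMerge 37.02, cutadapt 1.8.1), reads were mapped by STAR 2.7.7a to mm10, and RSEM 1.3.0 quantified the genes of Gencode M21. The deposited counts are whole numbers per gene, unscaled, and the deposited TPM table holds TPM values for the same 55450 genes. RSEM fits an effective length per library, so TPM and CPM ratios of a gene can differ. Every row names a gene, and 217 share their symbol.

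Only the 3 PBS tumours were used. They form 1 group, so no test was run. Replicates are tumours of separate mice, per the labels. List sums and levels are in TPM, mean ± SD over 3 tumours. Differences between tumours used log2(value + 0.1) for genes with a mean TPM of at least 1. TMM scaling and the common dispersion came from edgeR 4.0.16 in R 4.3.3, with 15955 genes after its expression filter, checked on simulated counts. Length trends were removed along a line through the medians of 50 length bins. Poisson intervals are 95%. Python 3.11.15, pandas 2.3.3, numpy 2.4.6 and scipy 1.17.1 were used. Gene positions are from Gencode M21, and promoter windows from RefSeq on GRCm38.p6.

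The members, the 50 gene lists and the rule for named genes were chosen with earlier results of these data known, and 5 lists were added after these values were seen. The rule takes the 20 most abundant genes, each list's defining members and 4 highest others, up to 4 list members that vary 2-fold at a mean of 5 TPM, Ras genes such as Hras and Nras, and for each tumour the 5 genes farthest above and below the others at a mean of 10 TPM. Ribosomal protein, predicted and structural RNA genes were left out of the first and last parts. Not all 430 genes are printed, and some items are not reported here. Genes such as Cym, Clu, Crabp1, Kitl, Il3 and Sox10 were looked up by name. Alternatives were other scalings (library size, DESeq2 1.42.0 size factors, TPM rescaled to nuclear genes without structural RNA), other filters, pseudocounts and folds, and each tumour left out.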

Additional observations from a re-analysis of the deposited data

How the results depend on the processing

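No paired analysis was possible because the 3 tumours form 1 group and no result comes from a test. Leaving out 1 tumour left 804 to 2433 genes with a 2-fold difference, against 3179 with all 3; 804 is the count without tumour 1. The count was 1996 by TMM-scaled CPM, 2062 by library size alone, 1997 with DESeq2 size factors, 733 at a mean of 10 TPM or more, 10433 with no filter, 2031 with a pseudocount of 1, 7110 at a fold of 1.5, 1215 at a fold of 3, 2449 among protein-coding genes alone, and 1692 of those with the length trend removed too. The expressed genes (at 5 TPM or more in all tumours) numbered 7451, against 11429 at 1 TPM. The biological coefficient of variation was 0.950 with no filter and 0.270 to 0.368 with a tumour left out. The mean correlation between tumours was 0.894. It was 0.921 on rescaled TPM, 0.963 on TMM-scaled CPM, on library size alone and with DESeq2 size factors, 0.855 at a mean of 10 TPM, 0.948 with no filter, 0.937 with a pseudocount of 1, and 0.879 to 0.914 for pairs. Of 46 lists 11 had sums that differed by 2-fold, and 4 to 11 did with a tumour left out. Of 359 named genes with a mean of at least 1 TPM, 286 stayed on their side of a 2-fold difference by TMM-scaled CPM. In these comparisons the cause was not tested. With 3 tumours, differences between animals, sampling of the tumour and library preparation cannot be told apart.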

Other observations

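The mast cell chymases and the granzymes that were high in tumour 2 are neighbours in the genome, a region singled out after the values were seen. From Cma1 to Gzmb, chromosome 14 from 55941451 to 56262260 on mm10, the annotation holds 15 protein-coding genes, and 11 of them had a mean of at least 1 TPM. Both ends of the region were set by genes already seen to be high in tumour 2, and some of the 11 reached that mean only through it, so this is a description. Tumour 2 was the highest in 10 of the 11. The exception was Mcpt8, the basophil protease, with 1.55, 0.844 and 2.21 CPM. Cathepsin G (Ctsg), a neutrophil protease inside the same region, had at most 0.384 CPM. Mast cell genes elsewhere were high in tumour 2 as well, Tpsb2 on chromosome 17 and Cpa3 on chromosome 3 among them.

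The shares of counts from nuclear protein-coding genes were 82.9%, 83.0% and 83.0% in tumours 1, 2 and 3.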
